A study of Homo sapiens with 4 samples.

Results

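Docetaxel-treated and untreated tumours were compared where the grafted cells had been exposed to a caspase-3 inhibitor, with 1 RNA sequencing library for each condition. The comparison covered loci at the starts of 11 mouse chromosomes, kept when they ended below a fixed position on each chromosome and had a usable value in both libraries. This gave 661 of the 23698 loci in the deposited tables, and 1 further locus in these segments was left out by its status. The segments ran from 3.6 Mb on chromosome 15 to 34.6 Mb on chromosome 11, and chromosomes 11, 19 and 8 supplied 224, 117 and 109 of the loci.

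The tumours were xenografts of MDA-MB-231, an established human triple-negative breast cancer line, injected under the skin of Balb/c nude mice, which lack mature T cells. Inhibited tumours came from cells cultured with Z-DEVD-FMK, a peptide that blocks caspase-3, and the other tumours of the same line are labelled caspase-3 efficient. Treated mice received docetaxel at 15 mg/kg once the tumour measured 12 mm², and untreated mice received none. The inhibited untreated and inhibited docetaxel libraries form the comparison, and the efficient pair, which shares no library with it, is given beside it. The labels state neither the age of the mice nor the time from treatment to sampling, and nothing states whether several tumours were pooled. The inhibitor acts on the enzyme in cultured cells, so RNA levels do not check which tumours were inhibited.

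Docetaxel is a taxane. It binds tubulin, holds microtubules in their assembled form and stops cells in mitosis. Caspase-3 is a protease that dismantles the cell late in apoptosis, and dying cells in which it is active can also release lipid signals that act on their neighbours. Because the tables list mouse loci, the values describe the host tissue in and around the graft, such as stroma, vessels, blood and immune cells. Human tumour reads that aligned to mouse sequence would be counted with them.

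Of the 661 loci, 365 were above 0 in both inhibited libraries, 36 in the untreated library alone and 26 in the docetaxel library alone, and 234 were listed at 0 in both. A further cut to at least 5 FPKM (fragments scaled by transcript length and by library size) in at least 1 library left 261 loci, and 104 loci above 0 in both fell under it. Differences are docetaxel minus untreated on the log2(FPKM + 1) scale, which understates those of low loci. A locus was called when the difference reached 1, meaning 2-fold on that scale, and the deposited intervals did not overlap. The intervals were made from each library alone, so they do not cover the spread between mice, and no p-value is given. They were wide. The upper bound lay a median of 54.9% above the value in the untreated library and 57.3% above it in the docetaxel library, and 64 of the 261 loci (24.5%) had a lower bound of 0 in at least 1 library.

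Most of the loci compared stayed under the 2-fold threshold in the inhibited pair. Of the 261 loci, 213 (81.6%) differed by less than 2-fold, and the median difference was 0.34 on the log2 scale, with quartiles of -0.15 and 0.80. Values were higher with docetaxel at 180 loci and lower at 81. All 593 loci compared in the tables, 261 of them these, had a median of 0.37, and the 332 outside the segments had 0.40. Values above 0 in both libraries were found at 365 of the 661 loci here and at 1271 of the 23698 in the tables, so loci with values crowd in these segments. The reason is not known, and a listed 0 or a share over all loci is read with that limit. Calls were made for 6 higher loci (2.3%) and 2 lower loci (0.766%), against 22 (3.71%) higher and 4 (0.675%) lower over all loci compared. The shares among these loci were thus close to the background or below it.

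**Figure D1:**
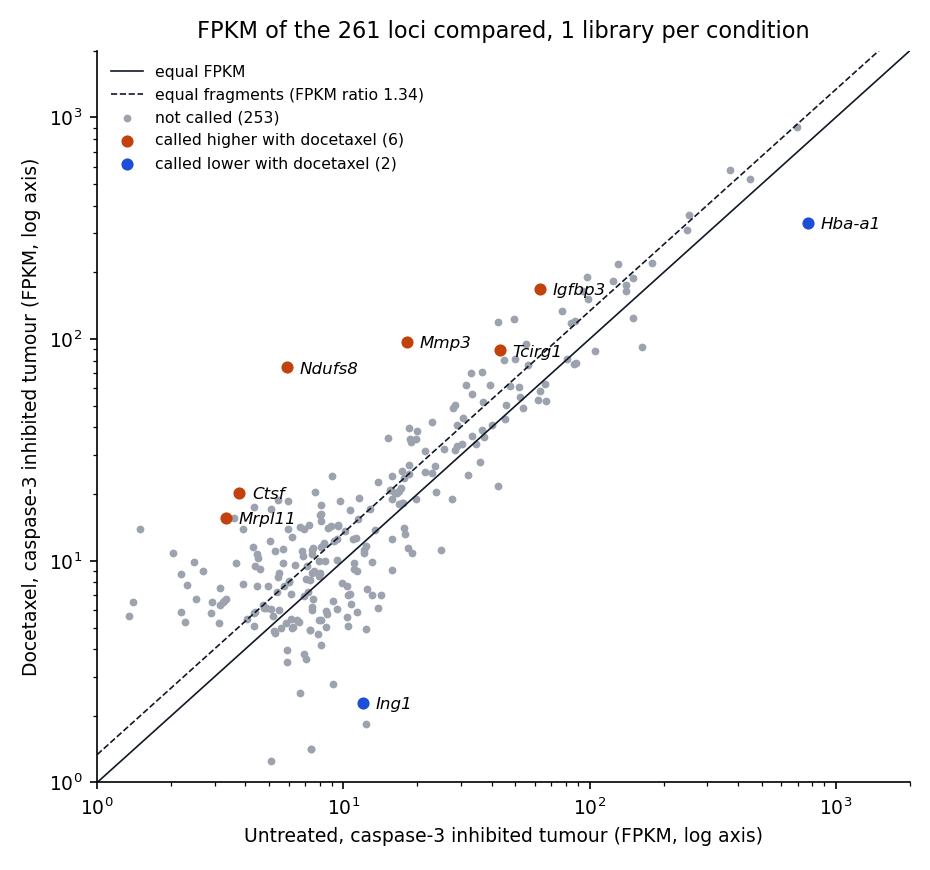
FPKM of the 261 loci compared, untreated on the x axis and docetaxel on the y axis (log axes), for the inhibited tumours. Most points lie between or near the lines of equal FPKM and equal fragments, with 6 loci called higher and 2 called lower.

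A recurring step in FPKM moved with this shift. Among all loci above 0 in both inhibited libraries, 269 of 1271 (21.2%) had a docetaxel to untreated FPKM ratio within 0.2% of 1.336. This was read as the ratio that equal fragment numbers give, with the docetaxel library 0.748 times as deep as the untreated one. Equal fragments therefore stood 0.42 apart on the log2 scale. Divided by this ratio, the median locus had 0.969 times as many fragments with docetaxel, with quartiles of 0.667 and 1.33. Fragment numbers are not corrected for library size, so this scale lowers values from the shallower docetaxel library. On that scale 4 loci were called higher and 7 lower among 244 (36.4% of calls higher, against 75% as deposited). Scaling to equal medians over these loci gave 5 higher and 6 lower (45.5% higher), scaling over all loci gave 5 and 7 (41.7%), and quantile normalization gave 4 and 7 (36.4%). All 4 loci called higher and 2 of the 7 called lower per fragment were called as deposited too. The excess of higher over lower calls therefore holds for FPKM as deposited and not for the rescaled values.

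**Figure D2:**
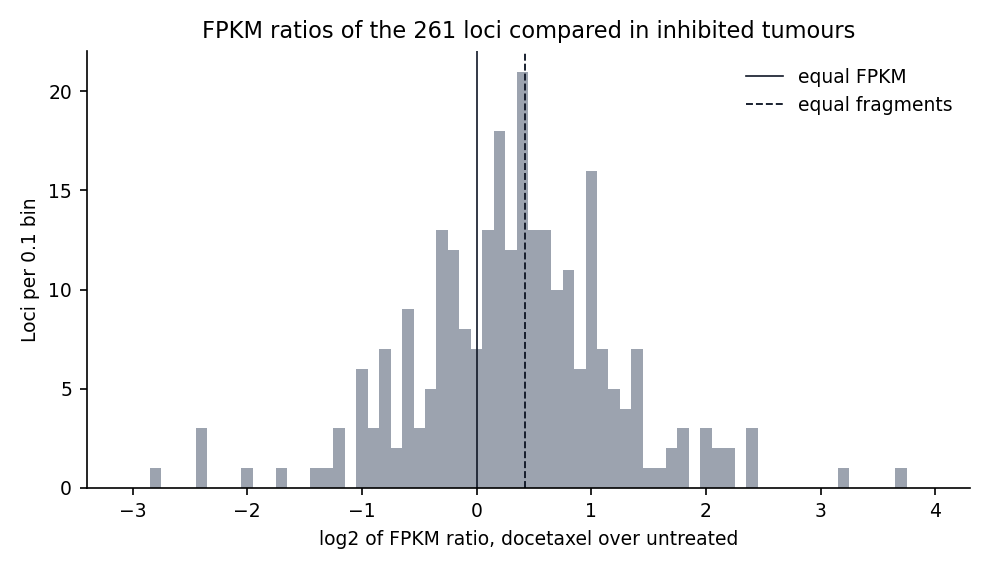
Number of loci by the log2 ratio of docetaxel to untreated FPKM, for the 261 loci compared in inhibited tumours. The solid line marks equal FPKM and the dashed line equal fragments (ratio 1.336, log2 0.42), where the tallest bin stands.

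Ndufs8 differed most. It encodes a core subunit of respiratory complex I, which passes electrons from NADH to ubiquinone, and lies on chromosome 19 (3908870 to 3912717, mm9). Its FPKM was 5.88 (deposited interval 0 to 11.6) in the inhibited untreated library and 74.6 (37.2 to 112) in the inhibited docetaxel library. In the efficient pair it was 31.4 (12.4 to 49.6) untreated and 66.7 (35.5 to 83.4) with docetaxel. The untreated inhibited library was thus the low one, and its interval met none of the other 3. The ratio was 12.7 in FPKM and 9.5 in fragments, a difference of 3.46 on the log2 scale, or 3.11 above the median locus. The lower bound with docetaxel was 3.21 times the upper bound without. The other complex I gene measured, Ndufv1, went the opposite way in value, from 42.5 (25.6 to 58.3) to 21.8 (9.5 to 32.3), and was called lower per fragment but not as deposited. Uqcr10, a subunit of complex III, was at 150 and 188 FPKM, a difference of 0.32. Of the 3 respiratory chain loci compared, 1 was called higher and none lower, with a median difference of 0.32 beside 0.34 for all 261.

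Mrpl11, a protein of the large subunit of the mitochondrial ribosome, was called higher as well (chromosome 19, 4962306 to 4966995). It was at 3.34 FPKM (0.776 to 6.21) untreated and 15.6 (8.29 to 22.8) with docetaxel in inhibited tumours, and at 6.69 (2.76 to 10.4) and 13.6 (8.26 to 18.6) in efficient tumours. The untreated inhibited library was again the lowest, although its interval overlapped that of the untreated efficient library. The ratio was 4.68 in FPKM and 3.5 in fragments. Among the 4 mitochondrial ribosome loci compared the median difference was 1.19, but the members did not move together. Mrpl15 (1.34 and 5.61 FPKM) and Mrpl21 (5.67 and 11.4) had higher values with docetaxel and intervals that reached 0 in both libraries. Mrps24, of the small subunit, had the lower value with docetaxel, 11.1 (0 to 20.8) against 25 (8.88 to 40.0). The other 10 mitochondrial loci gave no call in either direction and a median of 0.26. The malate dehydrogenase gene Mdh1 (56.1 and 76.6 FPKM) and the import motor gene Timm44 (19.8 and 18.9) were the best covered among those named.

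Mmp3 was called higher with the largest separation after Ndufs8. It encodes stromelysin-1, a secreted protease that cleaves proteoglycans and basement membrane and activates other proteases, and lies on chromosome 9 (7445822 to 7455974). Its level was 18.2 FPKM (8.70 to 27.3) in the inhibited untreated library and 97.3 (68.1 to 126) with docetaxel. In efficient tumours it was 44.3 (28.8 to 59.8) and 86.3 (62.0 to 103), where the intervals were also apart but the difference stayed under 2-fold. The inhibited untreated library was the low one of the 4, and both docetaxel libraries overlapped. The ratio was 5.34 in FPKM and 4.0 in fragments. Its neighbours on that chromosome differed less, with Mmp12, the macrophage elastase, at 55.2 and 94.8 FPKM (0.77) and the collagenase gene Mmp13 at 37.1 and 52.0 (0.48). Of the 11 protease and inhibitor loci 3 were compared and 1 was called. Mmp8 (1.99 and 2.66 FPKM) and Mmp10 (1.48 and 3.95) were above 0 in both but under the minimum, and Mmp1a, Mmp1b, Mmp7 and Mmp20 were listed at 0 in both libraries.

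Lysosomal genes held 2 of the 6 higher calls, among 9 loci compared, where 3.71% of all loci compared were called higher. The list was chosen with earlier results of these data known, and its share of calls was not tested. Ctsf, encoding the lysosomal cysteine protease cathepsin F (chromosome 19, 4855129 to 4860912), was at 3.78 FPKM (0 to 6.79) untreated and 20.2 (9.08 to 30.3) with docetaxel. The efficient libraries were at 6.74 (2.02 to 11.1) and 17.2 (9.79 to 24.1). The 2 docetaxel libraries were therefore high and the 2 untreated libraries low, with the clear gap in the inhibited pair. The ratio was 5.34 in FPKM and 4.0 in fragments.

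Tcirg1, a membrane subunit of the proton pump that acidifies lysosomes, lies beside Ndufs8 on chromosome 19 (3896050 to 3907133). It was at 43.3 FPKM (30.3 to 56.4) untreated and 89.0 (68.1 to 111) with docetaxel, against 76.1 (60.8 to 92.1) and 84.8 (70.1 to 99.4) in efficient tumours. The inhibited untreated library stood below the other 3, which overlapped. The difference of 1.02 was just past the threshold, and it was not called per fragment (0.61), with median scaling (0.71), with quantile normalization (0.56) or with a pseudocount of 5 (0.96). All 9 lysosomal loci passed the minimum, with a median of 0.95 and a range of -0.51 to 2.15, and 6 of the 9 lay above the median of all loci. Lamp1, the major lysosomal membrane protein, was at 98.1 (74.4 to 121) and 191 (150 to 225), with separate intervals and a difference of 0.95. Ctsw, a cathepsin of cytotoxic lymphocytes, was at 4.34 (0 to 9.08) and 17.4 (4.85 to 29.1), and the endosomal protein gene Plekhf2 at 2.47 (0 to 4.59) and 9.90 (4.09 to 15.3). The intervals of both overlapped. The pump subunit gene Atp6v1h was at 21.4 and 25.3 FPKM. Summed over the 9 loci the level was 197.9 FPKM untreated and 381.9 with docetaxel, beside 270.9 and 384.0 in the efficient pair. The untreated inhibited library had the lowest sum. The sum includes Lamp1 and the called loci Ctsf and Tcirg1, so it is not separate from those calls.

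Igfbp3 was the call in which the docetaxel library, and not the untreated library, stood apart. It encodes a secreted protein that binds insulin-like growth factors, and lies on chromosome 11 (7106096 to 7113926). Its level was 168 FPKM (132 to 202) with docetaxel in inhibited tumours. The other 3 libraries were at 63.0 (45.8 to 79.7), 69.4 (52.2 to 85.7) and 66.5 (50.0 to 82.9) for inhibited untreated, efficient untreated and efficient docetaxel. These 3 overlapped closely, and none of them met the interval of the inhibited docetaxel library. The difference was 1.40, or 1.06 above the median locus. Per fragment the ratio was 2.00 and the difference 0.99, just short of the threshold, with intervals still apart. Of 9 growth factor, receptor and binding protein loci compared this was the only call, and the list's median was 0.55. The others named were Gas6, a ligand of TAM receptors (21.5 and 31.2 FPKM), the adaptor gene Grb10 (6.86 and 10.5), the cytokine gene Clcf1 (7.27 and 14.6), Fibp (19.8 and 35.3) and the growth hormone receptor gene Ghr (11.1 and 9.78).

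In all 6 higher calls the inhibited untreated library was the lowest of the 4 and the inhibited docetaxel library the highest. Among the 261 loci compared, these libraries held the lowest and highest value at 109 (41.8%) and 90 (34.5%). The call rule takes part in this order, since it keeps loci where these 2 libraries lie far apart.

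**Figure D3:**
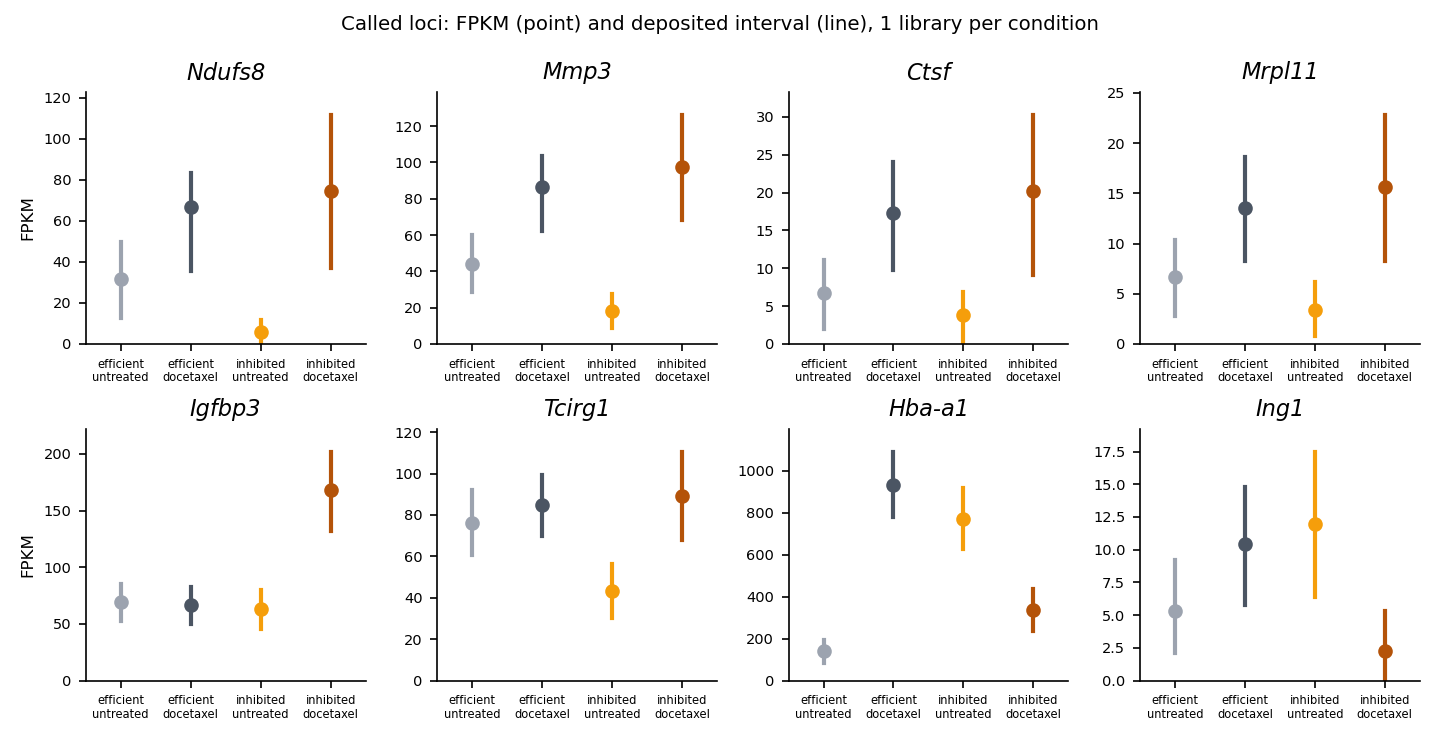
FPKM in each of the 4 libraries (points, 1 library per condition) with deposited intervals (lines) for the 6 loci called higher and the 2 called lower, each panel on its own axis from 0. Igfbp3 is high in the inhibited docetaxel library alone, Ndufs8 is low in the inhibited untreated library alone, and Hba-a1 runs in opposite directions in the 2 pairs.

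Ing1 was called lower. It encodes a chromatin protein that reads trimethylated histone H3 and acts with histone deacetylases and p53, and lies on chromosome 8 (11556066 to 11563250). Its level was 12.0 FPKM (6.36 to 17.5) untreated and 2.29 (0 to 5.31) with docetaxel in inhibited tumours. In efficient tumours the order of the values was the opposite, at 5.34 (2.12 to 9.20) and 10.4 (5.82 to 14.8), with overlapping intervals. The inhibited docetaxel library was the low one, and it overlapped the efficient untreated library. The level was 5.24-fold lower in FPKM and 7.0-fold lower in fragments, a difference of -1.98, or -2.33 against the median locus. The bound untreated was 1.20 times the bound with docetaxel.

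Hba-a1, an alpha globin chain of red blood cells and their precursors, was the other lower call (chromosome 11, 32196489 to 32197303). It was at 772 FPKM (627 to 916) untreated and 335 (235 to 436) with docetaxel in inhibited tumours, and at 140 (83.8 to 196) and 933 (781 to 1090) in efficient tumours. The inhibited untreated and efficient docetaxel libraries overlapped and lay above the other 2, which did not overlap, so the 2 pairs ran in opposite directions. The level was 2.30-fold lower in FPKM and 3.08-fold lower in fragments with docetaxel in the inhibited pair, a difference of -1.20. An Hba-a2 entry overlaps this position and was listed at 0 in both inhibited libraries, so the division of reads between copies is uncertain. The other Hba-a1 entry (32183672 to 32184486) was at 163 (100 to 226) and 92.2 (41.9 to 151) in the inhibited pair and at 67.1 and 469 in the efficient pair, the same order of libraries, with overlapping intervals in the inhibited pair and a difference of -0.82. The 2 entries are near-identical copies and not separate observations. In tumour tissue, fewer cells of a type and less RNA per cell cannot be told apart, here or at any locus.

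A further 13 loci had separate intervals with a difference under 2-fold, each of them with the higher value in the docetaxel library. With the calls this made 19 loci (7.28%) apart and higher and 2 (0.766%) apart and lower, against 40 (6.75%) and 6 (1.01%) over all loci compared. Several were well covered stromal and secreted products. Fibrillar collagen was represented by Col1a2, at 371 FPKM (337 to 401) and 579 (528 to 624), and in efficient tumours at 369 and 515. Col4a1, a chain of basement membrane collagen, was at 27.9 (22 to 34.1) and 48.9 (39.8 to 58.3), beside 26.7 and 31.5. Sepp1, a plasma selenium carrier, was at 255 (217 to 292) and 363 (312 to 414), beside 401 and 816. For both collagens the inhibited docetaxel library was the highest of the 4, while for Sepp1 the efficient docetaxel library was.

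Others serve membrane traffic and the nucleus. Rab1, a small GTPase between endoplasmic reticulum and Golgi, was at 130 (104 to 156) and 219 (178 to 255), and both efficient libraries, at 119 and 122, stood with the untreated value. Xpo1, the main nuclear export receptor, was likewise highest in the inhibited docetaxel library, at 39.5 (30.6 to 48.3) and 62.3 (50.1 to 74.9) beside 36.0 and 33.9. The syntenin gene Sdcbp was at 125 (103 to 148) and 183 (151 to 215), beside 126 and 255. Klf6, a zinc finger transcription factor, was at 33.4 (24.9 to 41.9) and 56.6 (43.2 to 69.4). Gdi2, a Rab recycling factor, was at 77.6 and 134 FPKM, and Ccdc88a, an actin-binding protein, at 6.17 and 12.9. The last pair were named after their values were seen.

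Of the nuclear long noncoding RNAs, Neat1, the scaffold of paraspeckles, was at 31.6 (21.8 to 40.8) and 62.3 (46.1 to 78.1). Malat1, which resides in nuclear speckles, was at 49.8 (41.6 to 58.0) and 81.5 (69.3 to 93.7). In the efficient pair Neat1 was at 71.0 and 102 and Malat1 at 92.8 and 125, so the inhibited untreated library was the lowest for both. Tug1 was at 7.48 and 8.78, and the median of the 3 RNAs was 0.70. All 4 libraries are labelled as depleted of ribosomal RNA, which keeps RNAs without a poly(A) tail. None of the 13 loci had separate intervals per fragment.

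**Figure D4:**
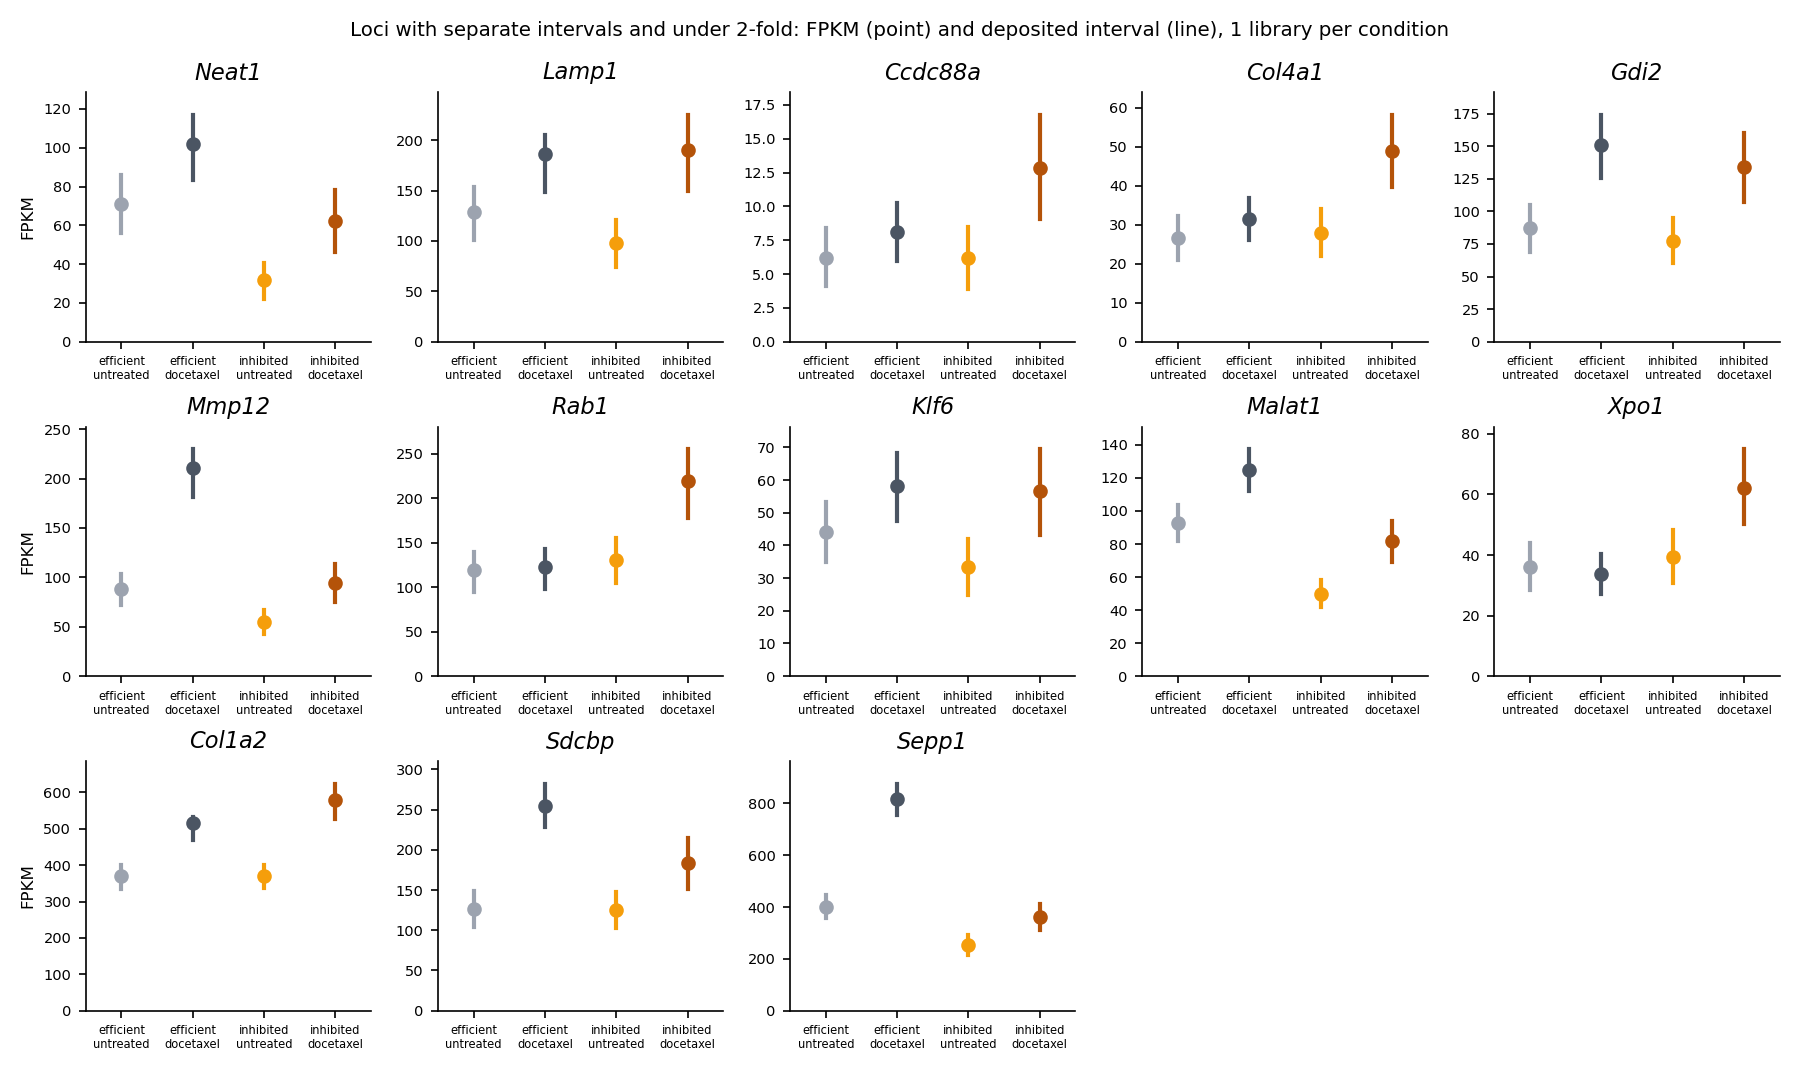
FPKM in each of the 4 libraries (points) with deposited intervals (lines) for the 13 loci whose intervals were apart in the inhibited pair with a difference under 2-fold. Rab1 and Xpo1 are high in the inhibited docetaxel library alone, and Sepp1, Mmp12 and Sdcbp are highest in the efficient docetaxel library.

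Per fragment, a scale not corrected for library size, 5 loci joined the lower calls. Of these, 4 were also called lower with scaling to equal medians over the 261 loci compared, and all 5 with quantile normalization. Slc25a45, of the mitochondrial carrier family, had the lowest difference of all, -2.24, at 12.3 FPKM (4.88 to 19.5) untreated and 1.83 (0 to 4.89) with docetaxel. These intervals met by a narrow margin, and the efficient libraries were at 11.0 and 16.9, so the inhibited docetaxel library was the low one of the 4. Sf3a1, a component of the spliceosome, was at 14.2 (9.55 to 19.1) and 6.97 (3.04 to 10.3). Dock2, an activator of Rac in leukocytes that overlaps another entry, was at 11.4 (7.82 to 15.3) and 5.89 (2.85 to 9.02). The remaining pair were Ndufv1, given above, and Pcnxl3 at 6.65 (4.0 to 9.24) and 2.54 (0.823 to 4.52). None of the 5 was called on FPKM as deposited.

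Several loci at the extremes of the difference were not called and had a low value in the untreated or the docetaxel library. Not all such loci were low, since Mrps24, given above, was not called either. Sgce, a sarcoglycan, was at 1.5 (0 to 10.2) and 13.9 (1.87 to 31.5), a difference of 2.58. Carkd (2.03 and 10.8 FPKM), the glycosyltransferase gene B3gnt2 (3.58 and 15.6), the aldo-keto reductase gene Akr1c13 (5.43 and 18.9), Ccdc117 (1.40 and 6.54) and Ctxn1 (2.19 and 8.76) had differences of 1.62 to 1.97. At the other end Cpeb4, which binds polyadenylation elements of messenger RNA, was at 7.42 (2.90 to 12.6) and 1.42 (0 to 3.88). Nprl3, a regulator of mTORC1 that overlaps another entry, was at 7.41 and 1.41, and Bcl11a, a repressor of fetal globin genes, at 9.10 and 2.78. All of the loci given here with values had overlapping intervals and were therefore not called.

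Among the 10 loci with the highest mean FPKM, Hba-a1 was called lower, Col1a2, Sepp1 and Rab1 had separate intervals with higher values, and the other 6 had overlapping intervals. Cfl1, encoding the actin-severing protein cofilin, had the highest mean of both libraries at 694 and 901 FPKM, and its value with docetaxel lay just above its own upper bound. Shfm1, a proteasome component, was at 450 and 528 FPKM, above its own upper bound in both libraries, so its interval is not reliable. Cyclophilin A (Ppia, 249 and 311), the ribosomal protein gene Rps20 (179 and 219) and nucleophosmin (Npm1, 140 and 175) had differences of 0.29 to 0.32. These lie beside the median of all loci, and in fragments they are 0.916 to 0.937 times the untreated number.

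Function lists, described by their counts, showed no call in most groups. Over all loci compared, 3.71% were called higher and 0.675% lower. In lists of this size, no call is near those shares and is not a result about their genes. Chromatin and transcription had 19 loci compared, 1 lower call (Ing1) and a median of -0.10, with 15 of the 19 below the median of all loci. Klf6 was its highest member, at 0.74. The elongation factor gene Tcea1 (28.4 and 31.6 FPKM), the chromatin reader gene Zmynd11 (32.0 and 24.4) and Drap1 (62.7 and 58.6) had differences from -0.38 to 0.15. The efficient pair had a median of 0.20 over its 19 loci, with no call. Splicing, RNA binding and export had 20 loci, no call and a median of 0.27. Ewsr1 was at 105 and 88.4 FPKM, Rbm4 at 66.6 and 52.7, Rbm14 at 66.1 and 63.1 and Banf1 at 98.5 and 151. For Rbm4 and Rbm14 both inhibited libraries were above both efficient ones, at 30.1 and 23.6 for Rbm4 and 40.5 and 26.7 for Rbm14.

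Microtubule genes were poorly covered, and no alpha or beta tubulin was among the loci compared. Of 13 tubulin, microtubule and motor loci 3 were compared, with no call. Gas2l1, which links actin and microtubules, was at 5.08 (0 to 11.2) and 1.25 (0 to 8.01), the kinesin light chain gene Klc2 at 6.36 and 9.55, and Nudcd3, a dynein cofactor, at 8.33 and 11.9. Actin and adhesion genes, with 14 compared, had no call and a median of 0.27. Coro1b (84.5 and 118 FPKM), Actr2 (87.8 and 78.0) and Plek (36.6 and 38.9) were among the best covered. Of 11 cell cycle and DNA repair loci none was called, with a median of 0.35. Tfdp1, the partner of E2F factors, was at 5.97 (1.32 to 10.5) and 14 (5.27 to 22.8), and the polymerase subunit gene Pold4 at 28.3 and 50.5. Cdk2ap2 was at 34.7 and 33.7.

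Cell death and innate immune genes gave no call, beside shares of 3.71% higher and 0.675% lower over all loci compared. With lists this short, the absence of calls is near those shares. The inflammatory caspase gene Casp1 was at 29.0 FPKM (16.3 to 41.4) and 41.0 (21.7 to 59.2), Casp4 at 23.6 and 26.7, and Casp12 at 7.45 and 6.22. The median of the 5 apoptosis loci compared was 0.17, and that of the 9 loci of NF-kB and innate signalling was 0.17 as well. In the efficient pair 7 apoptosis loci were compared and 2 were called higher, where 5.41% of all loci compared were. Their median was 0.95. Trp53inp1, a p53 target, was called in that pair and was at 2.15 and 1.73 FPKM here. The NF-kB subunit gene Rela was at 8.92 and 14.3, the kinase gene Lyn at 51.9 and 60.9, and Unc93b1, a chaperone of Toll-like receptors, at 151 (125 to 177) and 124 (96.1 to 152). Of the 3 stress response loci compared, Xbp1, the transcription factor of the unfolded protein response, was at 44.8 (28.6 to 60.9) and 80.4 (53.1 to 106), a difference of 0.83 with overlapping intervals. Erlec1 (6.10 and 5.44) and Sec61g (12.2 and 10.8) brought the median to -0.14. Protein folding genes, such as the chaperonin gene Cct4 (87.5 and 120), had a median of 0.32.

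Protein turnover and translation lists gave no call. The median of 9 ubiquitin and proteasome loci was 0.58, including Dcun1d5 (94.1 and 165 FPKM), the deubiquitinase gene Usp34 (15.8 and 24.1) and the proteasome activator gene Psme4 (6.81 and 11.0). The 11 ribosome and translation loci had a median of 0.29, with Rps27a at 18.5 (0 to 38.5) and 39.6 (10.5 to 69.4), Drg1 at 37.2 and 36.2 and Pno1 at 11.5 and 15.4. Vesicle traffic, with 20 loci, had no call, a median of 0.37 and 2 loci with separate intervals, Rab1 and Sdcbp. Rab2a (86.8 and 77.3), Rtn4 (81.4 and 81.8) and Rab1b (52.1 and 54.9) had differences of -0.16 to 0.08.

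**Figure D5:**
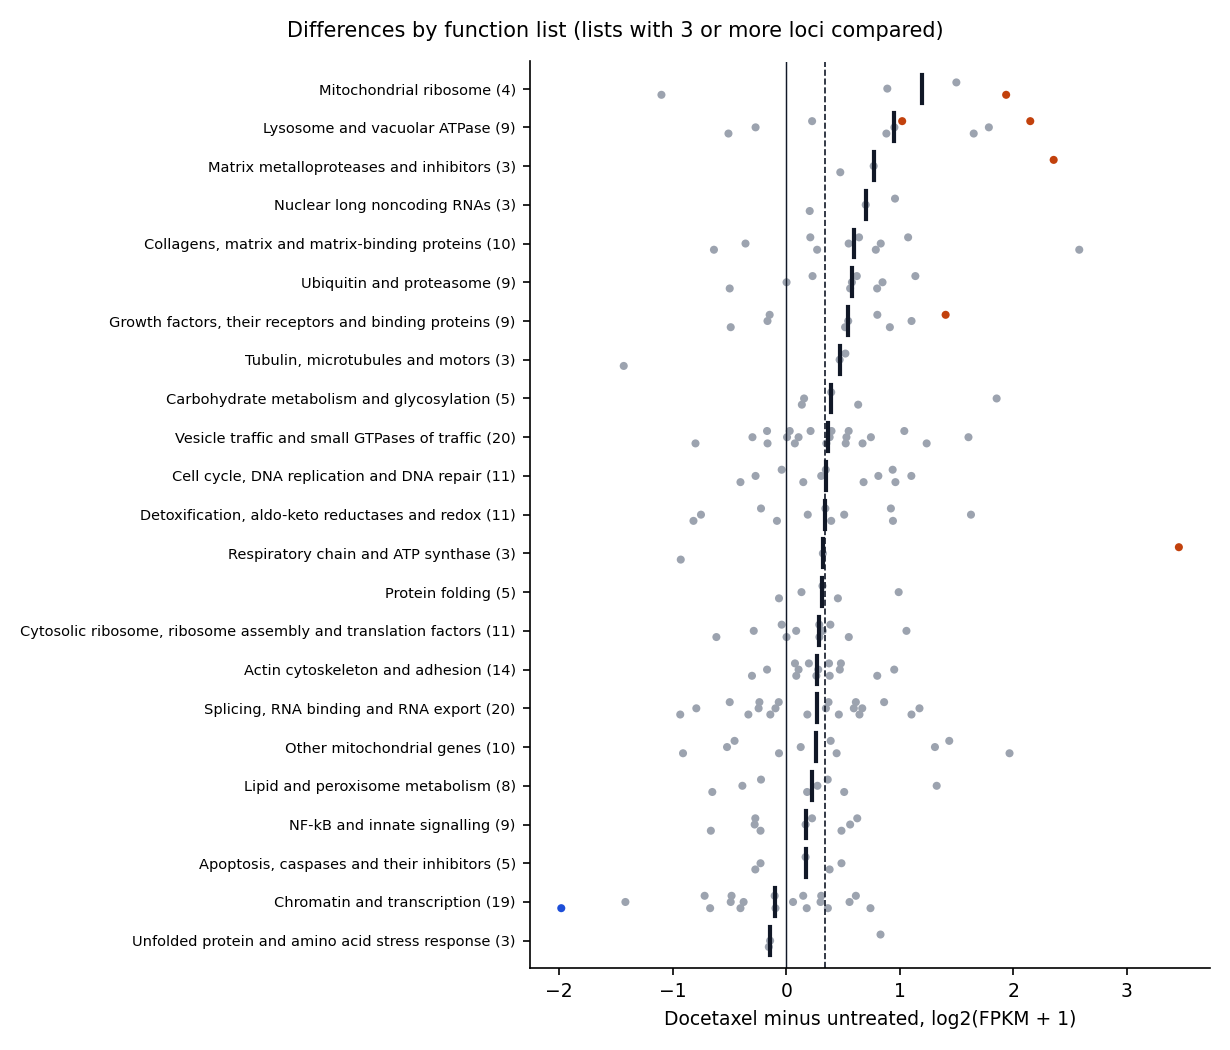
Difference of each locus (points, docetaxel minus untreated, log2(FPKM + 1)) by function list, with the list's median (bar), for lists with at least 3 loci compared and their numbers in brackets. The solid line marks 0 and the dashed line the median of all 261 loci (0.34); red and blue points are called higher and lower.

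Metabolic lists had medians of 0.23 to 0.40 and members spread from -0.82 to 1.85. Of 21 lipid and peroxisome loci 8 were compared, with no call and a median of 0.23. Cpt1a, which controls fatty acid entry into mitochondria, was at 6.0 (2.60 to 9.36) and 8.02 (3.47 to 12.5), equal in fragments. The thioesterase gene Lypla1 was at 9.02 (3.68 to 13.8) and 24.1 (13.5 to 34.4), a difference of 1.33 whose intervals met narrowly. In the efficient pair 5 of 11 such loci were called higher, where 5.41% of all loci compared were, and the median was 1.08. The adipocyte marker Retn, 1 of those 5, was at 10.5 and 417.5 FPKM in that pair, and its part in the list's difference was not tested. Detoxification and redox genes had 11 compared, no call and a median of 0.34, among them Gstp1 (28.9 and 33.1), Pon2 (8.14 and 16.3), Selm (36.7 and 71.4) and Dpp3 (18.9 and 10.8). Of 5 carbohydrate and glycosylation loci none was called, with Ugp2 (15.5 and 20.8) and Pfkp (11.2 and 12.6) in the group. Both Wnt loci compared, the coreceptor gene Lrp5 (8.10 and 5.41) and Kremen1 (10.5 and 6.99), had lower values with docetaxel and the same fragment ratio of 0.5.

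Matrix genes had 10 loci compared, no call, 3 with separate intervals and a median of 0.60. Efemp2, an elastic fibre protein, was at 33.1 (18.3 to 47.8) and 70.7 (45.0 to 96.2), and its intervals overlapped slightly. Tfpi2, a protease inhibitor of the matrix, was at 18.8 and 34.3. The related gene Efemp1 had the opposite order, at 18.3 (9.88 to 27.5) and 11.4 (4.40 to 19.1), and Cd248, of pericytes and stromal fibroblasts, was at 36.0 and 27.9. In the efficient pair Efemp1 was called higher, at 27.2 and 71.6.

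Markers of host cell types were summed in each library to show what moved beside these results. The 4 fibroblast and pericyte markers summed to 458.5 FPKM untreated and 689.3 with docetaxel, beside 501.8 and 700.5 in the efficient pair, with Col1a2 the main part and a median difference of 0.14. The 7 macrophage and dendritic markers summed to 225.5 and 230.0, beside 363.5 and 514.6. The 3 of them that were compared differed in direction, with Cd209f, a myeloid lectin, at 12.3 (4.03 to 22.2) and 4.94 (0 to 13.5), Unc93b1 at -0.28 and Mmp12, whose intervals were apart, at 0.77. The 7 lymphocyte and pan-leukocyte markers, all of them compared, summed to 86.53 and 112.1, beside 102.6 and 151.5, with no call and a median of 0.56. The 4 erythroid entries, 2 of them at 0 in both libraries, summed to 934.8 and 427.4, beside 206.8 and 1766. This sum consists of the Hba-a1 entries given above, including the locus called lower, so it is not separate from that call. Whether the differences of the other marker lists play a part in the calls was not tested.

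Other cell types could not be read here. Both inhibited libraries had 0 for the adipocyte marker Retn, beside 10.5 and 417.5 FPKM in the efficient pair, and likewise 0 for the skeletal muscle markers Actn3 and Myom2 and the epithelial factor Ovol1. The 3 endothelial markers were above 0 in both libraries but under the minimum, summing to 5.892 and 9.608 FPKM, with Angpt2 at 1.97 and 3.94, Sox17 at 3.06 and 1.02 and Myct1 at 0.869 and 4.64. No keratinocyte marker lay in the segments. Of the epithelial list Egfr was the member above 0 in both, at 2.71 and 1.56 FPKM. The defining carcinoma markers Epcam, Krt8 and Krt18 were not among these loci. The graft is human and the tables list mouse loci, so the labelled tumour cells were not checked by such markers.

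Loci listed at 0 in 1 inhibited library and at 5 FPKM or more in the other numbered 3, and a listed 0 gives no level. Asb13 was listed at 0 untreated and at 5.53 (0 to 11.1) with docetaxel, and Bod1, a chromosome biorientation factor, was listed at 0 untreated and at 7.47 (0 to 14.9) with docetaxel. Neither interval left 0. The third had the higher value untreated and is a clone name.

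The same loci were read in the efficient pair. There 24 of 289 loci were called higher and 0 lower, with a median of 0.40, against 34 (5.41%) higher and 5 (0.796%) lower among all 628 loci compared in that pair. The recurring FPKM ratio of that pair was 0.755, at 66 of 1662 loci, read as a docetaxel library 1.32 times as deep as the untreated one. Equal fragments thus gave a lower FPKM with docetaxel there and a higher one in the inhibited pair. FPKM is already scaled by library size, so these ratios alone do not show whether FPKM differences of the pairs are alike in scale. Of the 242 loci compared in both pairs, 0 were called higher in both, 0 lower in both and 1, Hba-a1, in opposite directions. In the inhibited pair only 6 of 261 loci (2.3%) were called higher, beside 3.71% over all loci compared. With calls this few, the lack of a shared call does not show that the pairs differ. For Ndufs8, Mmp3, Ctsf and Mrpl11 the efficient difference was 1.06, 0.95, 1.24 and 0.92, in the same direction as in inhibited tumours and not called, while for Igfbp3 and Tcirg1 it was -0.06 and 0.15. With 1 library per condition, no difference between the pairs was tested.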

How the data were processed

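RNA of 4 xenograft tumours was sequenced, 1 library per condition. Ribosomal RNA was removed before library preparation and sequencing was on a MiSeq, per the labels' protocols. The submitters' processing notes name TopHat, Cufflinks and the mouse build mm9, without tool versions. The authors deposited FPKM with lower and upper bounds and a status per locus, per the file headers. No step that separates human from mouse reads is recorded in the labels.

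Loci were matched across tables by symbol and position, and starts were raised by 1 to count from 1. The comparison used inhibited docetaxel against inhibited untreated, with a pseudocount of 1 FPKM, a minimum of 5 FPKM in at least 1 library, a 2-fold threshold and non-overlapping deposited intervals. Total fragments per library are unknown. Their ratio was read from the FPKM ratio that recurs within 0.2% across loci.

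The loci, the 26 function lists, the 10 marker lists and the rules were chosen with earlier results of these data known. Named loci were those called, the 12 largest and 12 smallest differences, the 10 highest means, and up to 6 per function list by mean FPKM. Predicted genes, clone names, short RNAs and entries under 500 bp were counted only. No set test and no test across conditions was made. The call rule was tested on simulated fragment counts without spread between mice, so that test does not cover differences between animals. Alternatives covered the pseudocount, the minimum, scaling, intervals, the fold, loci listed at 0, overlapping entries and the segment ends. Scaling to equal fragments was added after seeing the data and removes the correction of FPKM for library size. Computations ran in Python 3.11.15 (pandas 2.3.3, numpy 2.4.6, matplotlib 3.10.9).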

Additional observations from a re-analysis of the deposited data

Results flagged for a closer look

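Hba-a1 at 32196489 on chromosome 11 was called lower with docetaxel in inhibited tumours (772 to 335 FPKM) and higher in efficient tumours (140 to 933 FPKM). The inhibited difference minus the efficient difference was -3.93 on the log2 scale. This difference was not tested, since each condition was 1 library. It was singled out because the differences of the inhibited pair and the efficient pair were called in opposite directions.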

How the results depend on the processing

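As reported, 6 loci were called higher, 2 lower and 1 in opposite directions in the 2 pairs. Without the interval criterion these counts were 37, 11 and 5. Lower calls numbered 6 with median scaling over these loci, 7 with median scaling over all loci, 7 with quantile normalization and 7 at equal fragments. They numbered 1 with a minimum of 20 FPKM, 1 at 3-fold and 1 without overlapping entries, and the opposite-direction count was 0 under each of the last 2 settings. The median difference was 0.24 with a pseudocount of 5 and reversed to -0.10 at equal fragments. That setting was chosen after seeing the data and is not corrected for library size. Lysosomal higher calls fell to 1 and splicing genes gained 1 lower call with median scaling, and both did so at equal fragments. At equal fragments the respiratory chain gained 1 lower call and the growth factor list had 0 higher calls. Of 131 named loci followed through 5 settings, no called locus changed sign. Differences that were not called did change sign, at 20 loci with median scaling, 17 with quantile normalization and 25 at equal fragments. Tcirg1 and Igfbp3 lost the call in at least 1 setting, and Dock2, Ndufv1, Pcnxl3, Sf3a1 and Slc25a45 gained one. The cause of each change other than the rescaling itself was not tested. Leaving out a replicate was not possible with 1 library per group. No paired analysis was possible because each group holds 1 library. Depth limits most single loci, since 95 of the 261 reached 20 FPKM in a library and 24 reached 100, and the spread between mice is outside the deposited intervals.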
